A study of Sus scrofa with 2 samples.

Results

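Granulosa cells owe their identity to a small set of DNA-binding proteins, and 9 genes for such factors were followed here in the somatic cells of 2 pig antral follicles: FOXL2, WT1, GATA4, GATA6, NR5A1, NR5A2, RUNX1, RUNX2 and CEBPB. Members were taken by their symbol in the deposited gene list, which found 7 of the 9 among 22342 genes. NR5A2 is listed only by its Ensembl identifier, ENSSSCG00000024975, and was added through a reference table that pairs identifiers with names, so that 8 factors were measured. No row carries the name FOXL2 and the table pairs no listed identifier with it, so FOXL2 was not analysed here. The question was how much of each factor the cells held, in what share of cells it was found at like depth, and which factors and other genes went together across cells and follicles.

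Both follicles came from ovaries of 1 Landrace x Yorkshire pig, 210 days old and pubertal, that had been injected with pregnant mare serum gonadotropin, a hormone that drives follicles to grow. Follicles wider than 7 mm were opened and their fluid flushed out, the cumulus-oocyte complexes were treated with hyaluronidase, and the suspended somatic cells of each follicle, mural and cumulus together, made 1 library of 10x Genomics 3' single-cell RNA sequencing. Follicle 1 of the labels is called AF75 and follicle 2 AF76, after the names of their data. There was no untreated animal and no replicate follicle, so every interval below is a 95% interval that covers counting error only and no p-value is given.

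In the ovary these factors have well-known roles. FOXL2 keeps the supporting cells female, WT1 marks the supporting cells of young gonads, and GATA4 and GATA6 are zinc-finger proteins that switch on genes for steroid and inhibin production. NR5A1 (SF-1) and NR5A2 (LRH-1) are nuclear receptors that bind the control regions of steroidogenic genes, and NR5A2 is needed in granulosa cells for ovulation. RUNX1, RUNX2 and CEBPB belong to families with early roles in supporting cells and with a part in the response to the ovulatory surge of luteinizing hormone.

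Barcodes with 2000 to 5000 genes and under 7% mitochondrial UMIs were kept, which left 9362 of 14289 barcodes in AF75 and 7843 of 15548 in AF76. A UMI is the tag that marks 1 captured RNA molecule, and the median cell held 11254.5 UMIs in AF75 and 13902 in AF76. Between the libraries 56 deposited barcodes were shared, and 18 of these were within the limits in both. The cells carried granulosa RNA: INHA, the inhibin alpha subunit, had 19854 and 23176 UMIs per 1000000 UMIs of all genes (CPM), and CYP11A1, which makes pregnenolone from cholesterol, had 1690 and 1679. AMH, a product of granulosa cells of small follicles, had 0 UMIs in AF75 and 1 in AF76.

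The 250 bases just before the start of the gene are shown for RUNX2, whose window holds a short motif of its own family. The windows were read 5' to 3' on the strand of the gene from the Sscrofa11.1 assembly with RefSeq gene starts, in lower case with matches in capitals. The motifs searched on both strands were, for the factors of the GATA family, AGATAA, for NR5A receptors AAGGTCA and a looser form, AAGGNCA, for RUNX factors TGTGGT, for C/EBP factors TTGCNNAA, for forkhead factors GTAAACA, for WT1 and EGR factors GCGGGGGCG, for the cyclic AMP response element TGACGTCA, and for the E-box CACGTG. STAR, the carrier of cholesterol into mitochondria, is added because its RNA went with NR5A2 across cells and was high in the few cells rich in RUNX2, as described below.
RUNX2, plus strand of chr7:40106331-40106580: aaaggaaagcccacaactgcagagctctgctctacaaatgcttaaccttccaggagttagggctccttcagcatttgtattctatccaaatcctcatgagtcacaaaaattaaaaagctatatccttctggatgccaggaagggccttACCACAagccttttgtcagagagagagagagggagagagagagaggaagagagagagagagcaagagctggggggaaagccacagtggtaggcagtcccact
STAR, plus strand of chr15:48377347-48377596: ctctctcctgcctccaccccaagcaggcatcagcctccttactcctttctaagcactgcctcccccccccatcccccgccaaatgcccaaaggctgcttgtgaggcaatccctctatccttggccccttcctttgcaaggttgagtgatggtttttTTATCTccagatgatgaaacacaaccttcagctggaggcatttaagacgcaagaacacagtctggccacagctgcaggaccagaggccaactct

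The RUNX2 window held 1 match to TGTGGT, read as ACCACA, which 14.0% of 19556 windows before protein-coding genes also held. The STAR window held 1 match to AGATAA, read as TTATCT (8.08% of all windows). Neither AAGGTCA (3.21% of all windows) nor AAGGNCA (16.5%) was found before RUNX2, STAR, CYP11A1 or FDX1. TTGCNNAA (8.22%), CACGTG (6.39%), GTAAACA (2.28%), TGACGTCA (1.70%) and GCGGGGGCG (5.68%) were not found in the windows shown. The windows of WT1, GATA6, NR5A1 and RUNX1 held no match to any motif searched, and the RefSeq models of CEBPB and FOXL2 begin at the first coding base, so no window is given for them. A match is a match of letters and not a bound site.

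The nuclear receptor NR5A2 and the zinc-finger factor GATA6 held the most UMIs. NR5A2 lies at chr10:22727865-22866905 on the plus strand and reached 570 CPM in AF75 (interval 566 to 575) and 486 CPM in AF76 (482 to 490). GATA6 (ENSSSCG00000003702, chr6:107282709-107314725, plus strand) followed with 442 CPM in AF75 (438 to 446) and 373 CPM in AF76 (370 to 377). Both were among the genes with the most UMIs: NR5A2 had rank 267 among 15601 genes with a UMI in AF75 and rank 304 among 15772 in AF76, and GATA6 had ranks 328 and 396.

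RUNX1 and CEBPB formed a middle level. RUNX1 (ENSSSCG00000035537, chr13:198371835-198635648, minus strand), the DNA-binding partner of CBFB, stood at 102 CPM in AF75 (100 to 104) and 105 CPM in AF76 (103 to 107). CEBPB (ENSSSCG00000034207, chr17:51722633-51723673, plus strand), a leucine-zipper factor, stood at 99.0 CPM (97.1 to 101) and 104 CPM (102 to 105). The intervals of these neighbours overlapped in both follicles, and their order was not tested. GATA4 (ENSSSCG00000022383, chr14:14858470-14938156, plus strand) came next at 68.1 CPM in AF75 (66.6 to 69.7) and 49.3 CPM in AF76 (48.0 to 50.7).

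The remaining factors were low. RUNX2 (ENSSSCG00000001710, chr7:40106581-40353304, plus strand), known as the master factor of bone cells, had 23.6 CPM in AF75 (22.7 to 24.5) and 26.3 CPM in AF76 (25.3 to 27.2). NR5A1 (ENSSSCG00000005588, chr1:265284491-265311547, minus strand), the close relative of NR5A2, had 11.3 CPM (10.6 to 11.9) and 9.88 CPM (9.30 to 10.5). WT1 (ENSSSCG00000013316, chr2:28411467-28456007, plus strand) was lowest, with 119 UMIs or 1.07 CPM in AF75 (0.886 to 1.28) and 302 UMIs or 2.77 CPM in AF76 (2.47 to 3.10). UMIs are counted at the 3' end and were not divided by length, so these are orders of UMIs. RefSeq places a gene on the opposite strand over part of WT1, GATA6 and RUNX2, and the strand setting of the counting is not given in the sources used here.

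**Figure D1:**
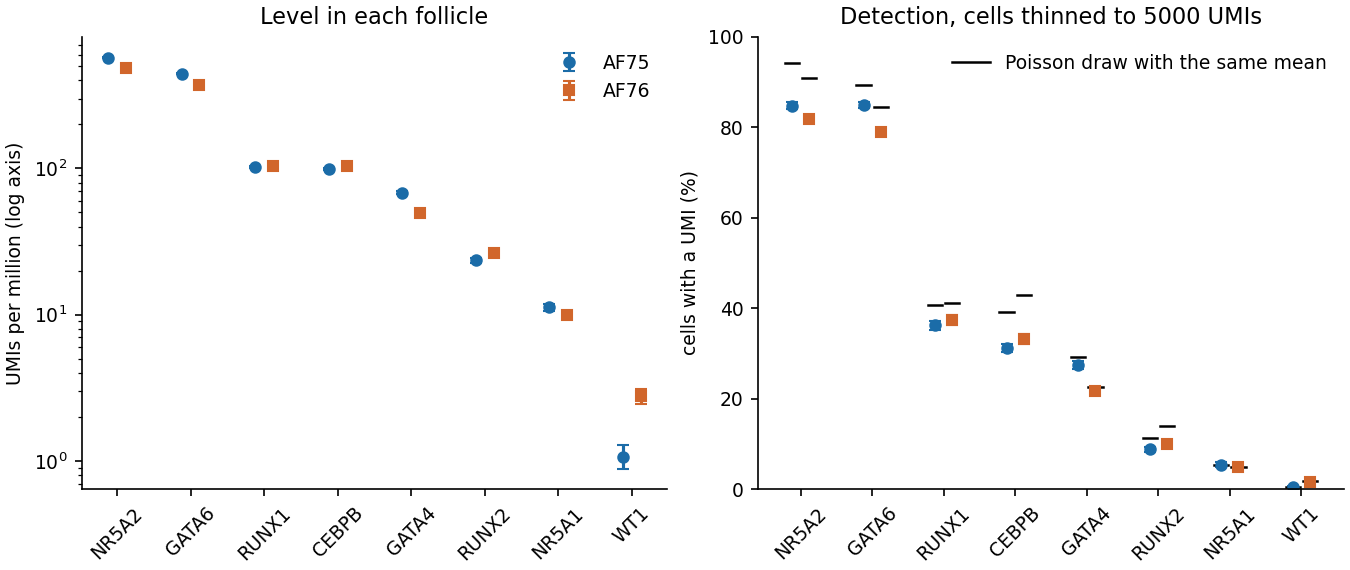
Left, level of 8 factors in AF75 (circles) and AF76 (squares) in CPM on a log axis, with 95% counting intervals. Right, share of cells with at least 1 UMI after each cell was thinned to 5000 UMIs, with 95% intervals and, as black bars, the share a Poisson draw at the same mean would give. NR5A2 and GATA6 stand apart at the top and WT1 at the bottom. The intervals of NR5A2, GATA6, RUNX1, RUNX2 and CEBPB lie below their bars in both follicles.

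Detection followed the levels. In all UMIs of a cell, GATA6 was found in 96.8% of AF75 cells and 94.4% of AF76 cells, and NR5A2 in 95.3% and 93.9%, while NR5A1 was found in 12.3% and 12.4% and WT1 in 1.16% and 3.10%. To set the follicles at like depth 5000 UMIs were drawn from each cell, without 19 shallower cells of AF75 and 105 of AF76. At that depth NR5A2 was found in 84.8% of AF75 cells (84.1 to 85.5) and 81.9% of AF76 cells (81.0 to 82.7), where a Poisson draw with the same mean would give 94.1% and 90.9%. GATA6 was found in 84.9% and 78.9% of thinned cells against Poisson shares of 89.4% and 84.5%.

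Among the middle factors the shares parted from the levels. RUNX1 was found in 36.3% of thinned AF75 cells and 37.3% of AF76 cells, and CEBPB in 31.2% and 33.2%. CEBPB thus reached fewer cells than RUNX1 at nearly the same level, with intervals of 30.3 to 32.2 against 35.3 to 37.2 in AF75. GATA4 was found in 27.5% and 21.7%, RUNX2 in 8.80% and 10.1%, NR5A1 in 5.44% and 4.83%, and WT1 in 0.557% and 1.55%.

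Within each follicle the share rose with depth for most factors. Cells were split at the quartiles of UMIs per cell over both libraries, the lowest quartile running from 3487 to 9855 UMIs and the highest from 15203 to 32958. From the lowest to the highest quartile GATA4 went from 41.7% to 64.7% of cells in AF75 and RUNX1 from 49.7% to 75.7%. WT1 in AF76 ran the other way, at 6.84% of cells in the lowest quartile and 2.64% in the highest, and RUNX2 in AF76 stood at 20.6% in the lowest and 17.6% in the second. The shallow cells of AF76 include a cluster, described below, in which both genes were high.

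**Figure D2:**
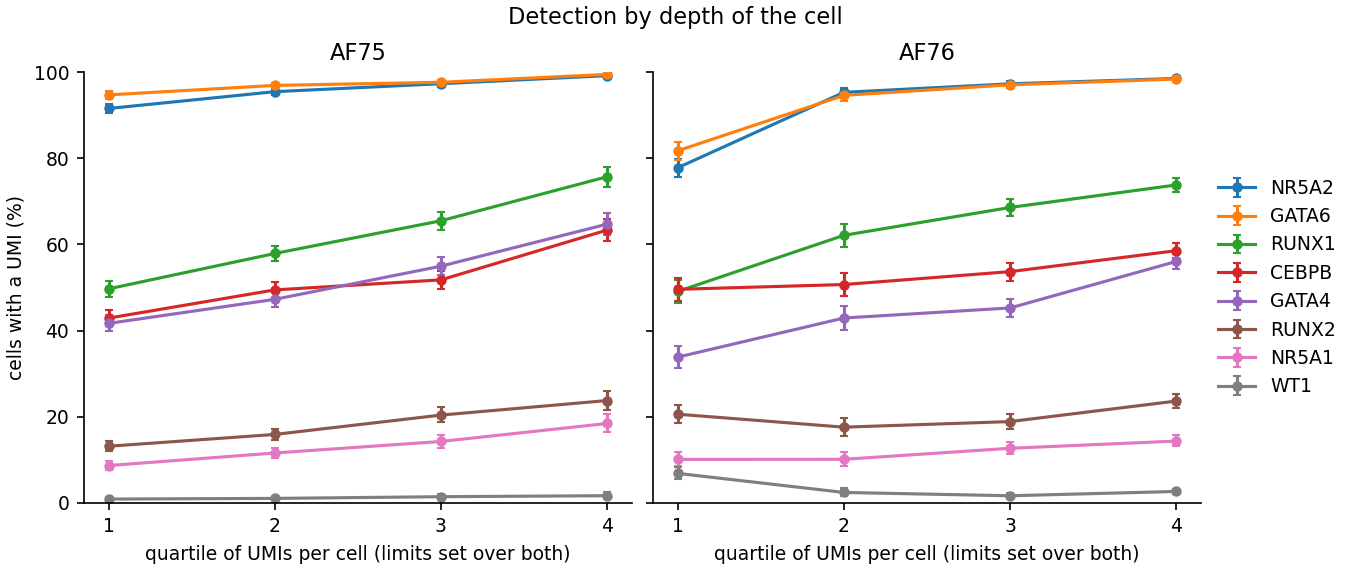
Share of cells with at least 1 UMI of each factor (vertical axis, percent) by quartile of UMIs per cell, with 95% intervals; AF75 left and AF76 right. Most lines climb with depth, and WT1 in AF76 is highest, 6.84%, in the shallowest quartile.

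Cells of the immune system were taken as a measure of background, which holds only for factors that such cells do not make themselves. Whether they make GATA6 or another of the factors was not tested. Leukocyte-like barcodes, of any gene count, were those in which 3 or more of 8 leukocyte genes gave 10 or more UMIs together, and there were 4 in AF75 and 16 in AF76, with median depths of 18452.5 and 7088 UMIs. They also held INHA at 1659 and 8143 CPM, so granulosa RNA was counted in them. NR5A2 stood at 58.5 CPM (8 UMIs) and 83.2 CPM (10 UMIs) there and was found in 2 of the 4 barcodes and 4 of the 16, below the shares in the kept cells. GATA6 stood at 7.31 CPM (1 UMI) and 91.5 CPM (11 UMIs). GATA4 had 2 UMIs in AF75 and 0 in AF76, where a count of 0, taken to allow up to 3 counts, leaves room for 24.95 CPM. CEBPB, which blood cells also use, had 24 UMIs in each set, or 175 and 200 CPM. RUNX1, another gene of blood cells, was at 29.2 CPM in AF75 (4 UMIs, interval 7.96 to 74.8), below its level in the kept cells, and at 208 CPM in AF76 (135 to 307), above it. NR5A1 had 0 UMIs in both sets, WT1 and RUNX2 each had 0 in AF75 and 1 in AF76. For NR5A1 and WT1 the limit of 3 counts, 21.9 CPM in AF75 and 24.95 CPM in AF76, lies above the level in the kept cells, so their background could not be measured.

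UMIs of most factors were spread more unevenly over cells than those of genes of like mean, and RUNX2 and CEBPB stood highest against such genes. At 5000 UMIs per cell the variance of RUNX2 was 2.02 times its mean in AF75 and 2.31 times in AF76, higher than in 98.4% and 98.5% of the genes of like mean. CEBPB had 1.80 and 1.96 times, higher than in 96.1% and 96.6% of genes of its mean. RUNX1, at 1.34 and 1.29 times, was higher than 90.7% and 87.3% of its like, WT1, at 1.10 and 1.37 times, higher than 84.0% and 92.8%, and NR5A2, at 2.32 and 2.08 times, higher than 82.5% and 82.8%. A value of 1 is what a Poisson draw gives, and NR5A1 lay at 1.00 and 1.05.

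The spread of RUNX2 came with a tail of cells. In full counts 94 cells of AF75 and 111 of AF76 held at least 5 RUNX2 UMIs, where draws at the mean level and the depth of each cell would give 0.252 and 0.655 cells. The richest cell had 18 RUNX2 UMIs in AF75 and 21 in AF76. CEBPB reached 10 UMIs or more in 77 and 118 cells, where 0.0871 and 0.232 cells would be drawn. No cell of either follicle had 5 UMIs of NR5A1 or of WT1.

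**Figure D3:**
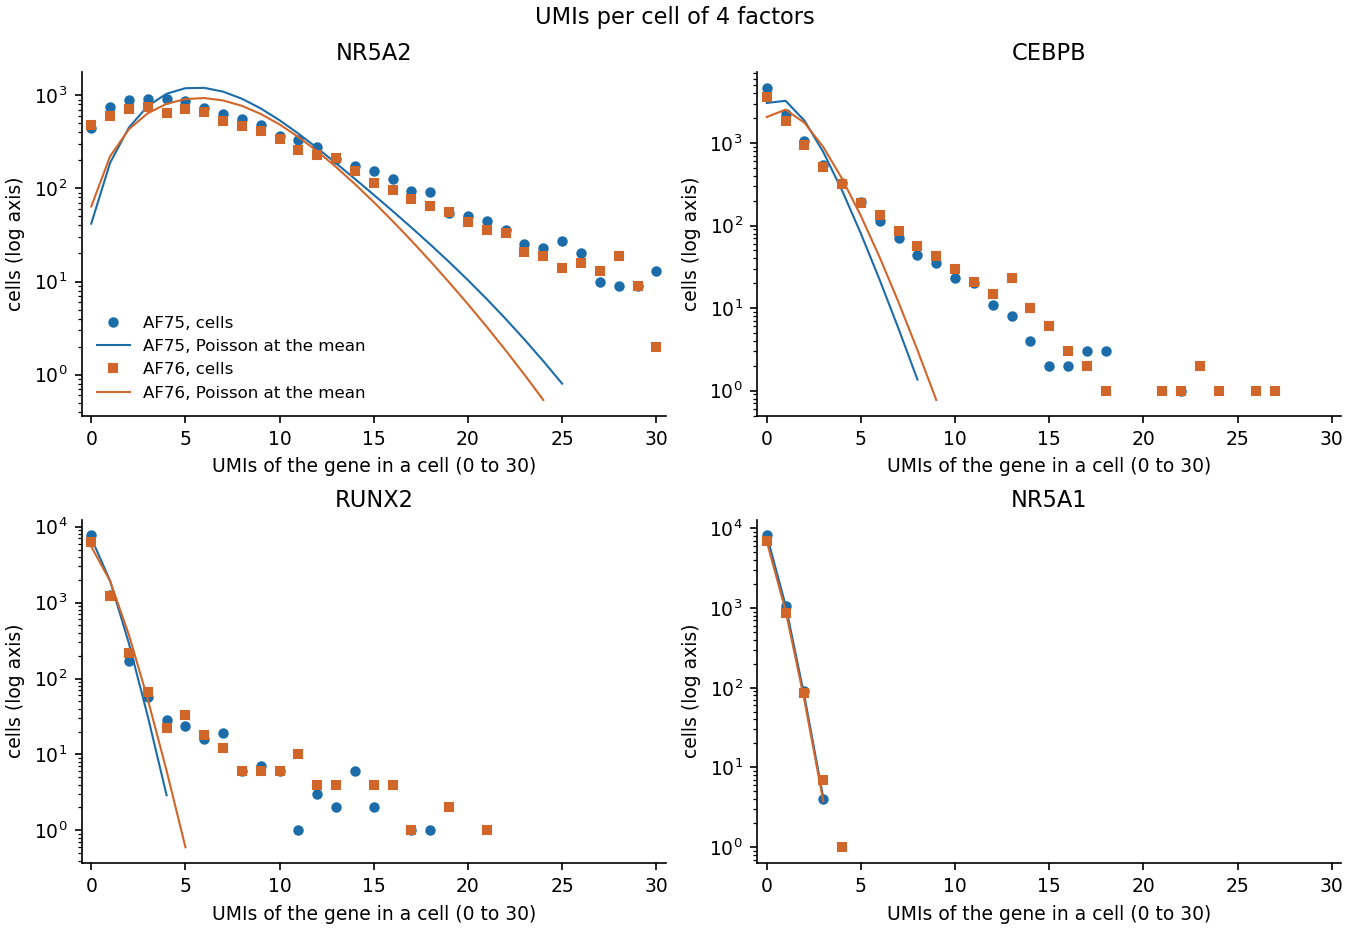
Number of cells (log axis) by UMIs of the gene in a cell, up to 30 UMIs, for NR5A2, CEBPB, RUNX2 and NR5A1; points are observed cells and lines a Poisson draw at the follicle's mean and each cell's depth. NR5A2, CEBPB and RUNX2 leave the line at high counts, and NR5A1 stays near it.

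Between the follicles, WT1 was the only factor past 1.5-fold, at 2.59 times the AF75 level in AF76 (2.09 to 3.23). Of 10049 genes with at least 200 UMIs in a follicle, 1.79% were past 1.5-fold higher in AF76 and 5.62% past it either way. GATA4 stood at 0.724 times (0.699 to 0.750), GATA6 at 0.844, NR5A2 at 0.852 and NR5A1 at 0.878 times the AF75 level. RUNX1 at 1.02, CEBPB at 1.05 and RUNX2 at 1.11 times lay near the middle of all genes, whose median absolute log2 ratio was 0.12. With 1 follicle each, the spread between follicles of 1 kind is not known.

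The WT1 difference rested on 1 group of cells. Without cluster 3, a set of AF76 cells described next, WT1 was at 1.23 times (0.955 to 1.59), and within the largest cluster it was at 0.770 times (0.552 to 1.08). WT1 had 119 and 137 UMIs in the former set and 73 and 77 in the latter, under the 200 needed for a call. Past 1.5-fold either way were 5.43% of genes without cluster 3 and 1.24% in the largest cluster. The same step took RUNX2 from 1.11 to 0.942 times. GATA4 stayed at 0.708 times without cluster 3, but within the largest cluster it was at 0.925 times (0.874 to 0.979).

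Clustering without the 9 factors gave 6 clusters, called here by number and leading genes. Cluster 0, with 3531 cells of AF75 and 4013 of AF76, was led by TGFB3 and ENPP2 and served as reference. Cluster 1 (3610 and 2724 cells) was led by genes of cholesterol synthesis such as INSIG1 and HMGCS1, cluster 2 (1587 and 132 cells) by ARPP21 and THBS1, cluster 4 (455 and 120 cells) by the mitotic genes TOP2A and CENPF, and cluster 5 (178 and 181 cells) by SPP1 and SCG2. Cluster 3 held 673 cells of AF76 and 1 of AF75 and was led by DEFB1, CEMIP and CCDC80, with the smooth-muscle genes ACTA2 and MYH11 among its leading 10. Its cells were shallower, with a median of 6426 UMIs against 13990 in cluster 0 of AF76.

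In cluster 3 most factors were past 1.5-fold from cluster 0, as were 53.5% of 9124 genes. WT1 stood at 34.7 CPM (29.6 to 40.4) against 1.35 CPM in cluster 0 of the same follicle, 25.6 times as high (19.4 to 34.0). RUNX2 stood at 114 against 20.6 CPM, 5.54 times as high (4.99 to 6.13). NR5A1 was at 23.3 against 9.39 CPM (2.48 times) and CEBPB at 239 against 99.1 CPM (2.41 times). NR5A2 went the other way, at 202 against 519 CPM, 0.390 times (0.365 to 0.416).

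The remaining factors lay between 0.750 and 1.52 times. GATA4 was at 74.3 against 49.0 CPM (1.52 times), GATA6 at 260 against 346 CPM (0.750 times) and RUNX1 at 110 against 104 CPM (1.06 times). Thus 6 of 8 factors were past 1.5-fold, where 53.5% of 9124 genes were past it either way, 38.7% higher and 14.7% lower. All genes had a median ratio of 1.29 here, a log2 shift of 0.36. Relative to that gene WT1 was at 19.9, RUNX2 at 4.31, NR5A1 at 1.93 and CEBPB at 1.88 times, NR5A2 at 0.303 times, GATA6 fell to 0.583 times, GATA4 to 1.18 times, and RUNX1 turned to 0.828 times. By that measure 6 factors were past 1.5-fold, and of all genes 47.2% were, 22.9% higher and 24.3% lower.

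At 5000 UMIs per cell, a depth that left out 90 shallower cells of cluster 3, WT1 was found in 13.04% of cluster 3 cells (10.41 to 16.04) and in 0.624% of cluster 0 cells of AF76. RUNX2 was found in 29.2% and NR5A2 in 51.1% of cluster 3 cells. Of 14 granulosa target genes tested in cluster 3, 7 were past 1.5-fold higher and 4 lower, where 38.7% and 14.7% of all genes were. The higher ones were INHBA, INHBB, FST, FSHR, GJA1, NR4A1 and AMHR2, and the lower ones INHA, STAR, SCARB1 and FDX1. INHA was at 2234 CPM against 24746 CPM in cluster 0, STAR at 7.14 against 39.6 CPM, and FSHR, the receptor for follicle-stimulating hormone, at 38.6 against 0.369 CPM. CYP11A1 was at 1946 against 1743 CPM. The minimum of 200 UMIs was counted over clusters 3 and 0 together, here and for the cofactors below. A gene could therefore be tested through its counts in cluster 3. FSHR, with 235 UMIs in all of AF76, was such a gene, so its place among the higher ones followed from the minimum. The shares of all genes rest on the same rule.

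Genes that mark other cells were counted beside these values. Of 9 theca and stroma genes all had UMIs in cluster 3, with a summed level of 348 CPM against 600 CPM in cluster 0, with CYP17A1, the defining enzyme of theca cells, at 2 UMIs or 0.420 CPM against 2.36 CPM. INSL3, which made up most of the sum in cluster 0, was at 35.7 against 588 CPM, while TAGLN was at 206 against 6.47 CPM, ACTA2 at 62.0 against 0.897 CPM and DCN, a matrix protein of stroma, at 18.5 against 0.615 CPM. Of 6 endothelial genes 5 had UMIs, with CDH5 at 0, summing to 30.9 CPM against 68.2 CPM. Of 10 leukocyte genes 7 had UMIs, with PTPRC, LAPTM5 and CD3E at 0, summing to 17.4 CPM against 13.3 CPM. Epithelial genes were read over all cells, and their levels by cluster are not given here. EPCAM had 1178 UMIs in AF75 and 1085 in AF76, KRT8 had 3 and 101, and KRT18 had 0 and 1. The part of other cell types and of depth in the cluster 3 values was not tested.

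**Figure D4:**
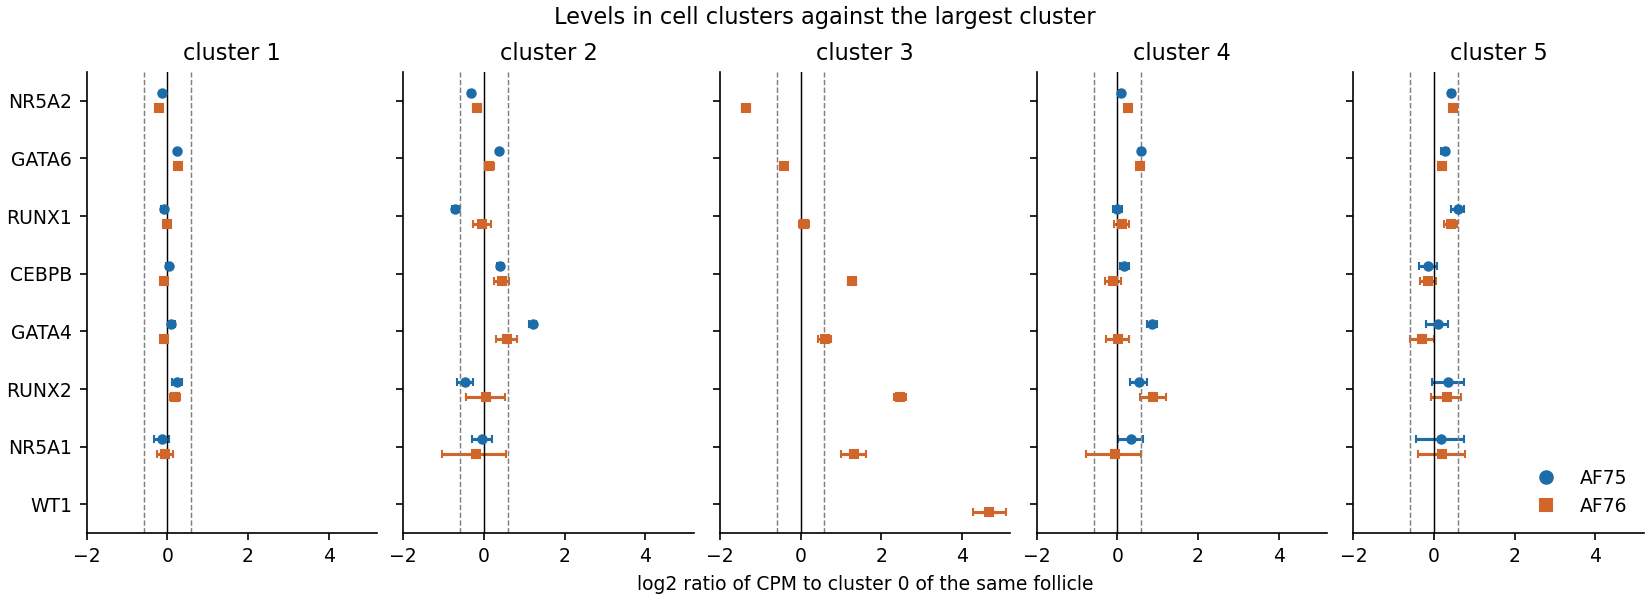
Log2 ratio of CPM in clusters 1 to 5 to cluster 0 of the same follicle for each factor, AF75 as circles and AF76 as squares, with 95% counting intervals; dashed lines mark 1.5-fold. Values are drawn where the 2 clusters held at least 200 UMIs of the gene, which leaves WT1 only in cluster 3, at 25.6 times.

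In the clusters that both follicles shared, no factor was past 1.5-fold the same way in both. Of all genes, 2.09% were past it higher and 1.02% lower in cluster 1, 4.1% and 5.01% in cluster 2, 5.54% and 4.58% in cluster 4, and 3.76% and 2.78% in cluster 5. GATA6 in the mitotic cluster 4 stood at 1.502 times in AF75 (1.45 to 1.55) and 1.48 times in AF76 (1.40 to 1.57). Cluster 5 held more NR5A2, at 1.35 and 1.39 times, and more RUNX1, at 1.51 and 1.33 times. In cluster 1 every factor with enough UMIs lay between 0.871 and 1.198 times in both follicles.

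In cluster 2 of AF75, where the median gene was at 0.920 times its level in cluster 0, GATA4 was high and RUNX1 low. GATA4 stood at 123 CPM, 2.32 times its level in cluster 0 (2.18 to 2.46), while RUNX1 was at 0.612 times and RUNX2 at 0.722 times. In AF76, where cluster 2 was small, GATA4 was at 1.48 times (1.23 to 1.76) and RUNX1 at 0.969 times. Past 1.5-fold either way in cluster 2 were 29.3% of all genes in AF75 and 17.6% in AF76. Cluster 4 of AF75 also held more GATA4, at 1.82 times, but in AF76 it was at 1.01 times. There 21.5% and 18.6% of all genes were past 1.5-fold, and in cluster 5 12.3% and 13.7%.

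Across cells the factors hardly went together. Correlations were taken between log1p counts at 5000 UMIs per cell, over 9343 cells of AF75 and 7738 of AF76, which share a library and a depth. Of 28 pairs of factors none reached r of 0.1 or -0.1 in both follicles, and r ran from -0.0690 to 0.0743 over both. The highest r, 0.0743, was that of RUNX2 and CEBPB in AF76, which was 0.0173 without cluster 3 and 0.00504 in AF75. The lowest, -0.0690, was that of WT1 and NR5A2 in AF76, which was -0.00704 without cluster 3. NR5A2 and RUNX1 had 0.0662 in AF75 and 0.0460 in AF76, and NR5A1 and NR5A2 had 0.0160 and -0.00916. All these values are weak. Most factors were sparse at this depth, and the part of sparsity in these values was not tested. NR5A2 and GATA6, each found in most thinned cells, had r of 0.00282 in AF75 and 0.0534 in AF76. Within the largest cluster this pair had 0.0378 and 0.0387. The small differences among the pairs were not tested.

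Genes were ordered by whichever of the r values of AF75 and AF76 was closer to 0, so that a gene stands high or low only if it does so in both. Genes of steroid synthesis stood at the top of the list for NR5A2, whose r values were the highest that any factor reached in both follicles. The gene most like it was CYP11A1, with r of 0.241 in AF75 and 0.225 in AF76, followed by FDX1, the ferredoxin that passes electrons to CYP11A1, with 0.196 and 0.206, and MGARP, a mitochondrial protein, with 0.188 and 0.206. Of 6879 genes found in at least 5% of thinned cells of both follicles, 13 had r of at least 0.1 with NR5A2 in both (0.189%) and 4 had r of at most -0.1 (0.0581%). STAR was among the 13, with 0.130 and 0.127, as was PGR, the progesterone receptor, with 0.136 and 0.157. Without cluster 3 CYP11A1 was at 0.241 and 0.247 and FDX1 at 0.196 and 0.173. The genes that ran most against NR5A2 were S1PR1, TMSB10 and RARRES1, and S1PR1 went from -0.120 to -0.0305 in AF76 without cluster 3.

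GATA6 had 3 genes at r of at least 0.1 in both follicles (0.0436% of all) and none at -0.1 or below. They were INHBA, the activin and inhibin beta A subunit, with 0.143 and 0.126, PDCD4 with 0.162 and 0.103, and ENSSSCG00000035869, which has no name here, with 0.113 and 0.100. The gene lowest on the list was RPS12, a ribosomal protein, with -0.117 and -0.0888, and IL33, a leading gene of cluster 0, was in the lowest 10 with -0.154 and -0.0760. Of 10 granulosa target genes tested, 3 reached 0.1 with NR5A2 (CYP11A1, STAR and FDX1), 1 with GATA6 (INHBA) and none with the other 6 factors.

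For those 6 factors no gene reached 0.1 in both follicles. By the order over both follicles GATA4 was most like TNFAIP8L3 (0.0830 and 0.0683), RUNX2 most like TLCD4 (0.0679 and 0.118) and CEBPB most like S1PR1 (0.0800 and 0.106). WT1 was most like RNF213 (0.0385 and 0.0627) and NR5A1 most like TRIB2 (0.0341 and 0.0363). RUNX1 was most like the mitochondrial gene ND2 (0.0659 and 0.0597). ND4 and ND3 came next, and most of the leading 10 for RUNX1 were mitochondrial genes. In AF75 alone GATA4 went with INHBA at 0.193 and with VCAN at 0.171, genes that are high in cluster 2, against 0.0152 and 0.0173 in AF76. GATA4 ran most against INHA, with -0.152 and -0.0595. Without cluster 3 the AF76 value of S1PR1 with CEBPB was 0.0391 and that of RNF213 with WT1 was 0.00379. TLCD4 with RUNX2 fell to 0.0432 in AF76, TNFAIP8L3 with GATA4 to 0.0256 and TRIB2 with NR5A1 to 0.00916. INHA with GATA4 went to -0.0204 there, while ND2 with RUNX1 stood at 0.0692. The lower a gene's count, the lower the r it can reach, so the low factors cannot be compared with NR5A2 in this.

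**Figure D5:**
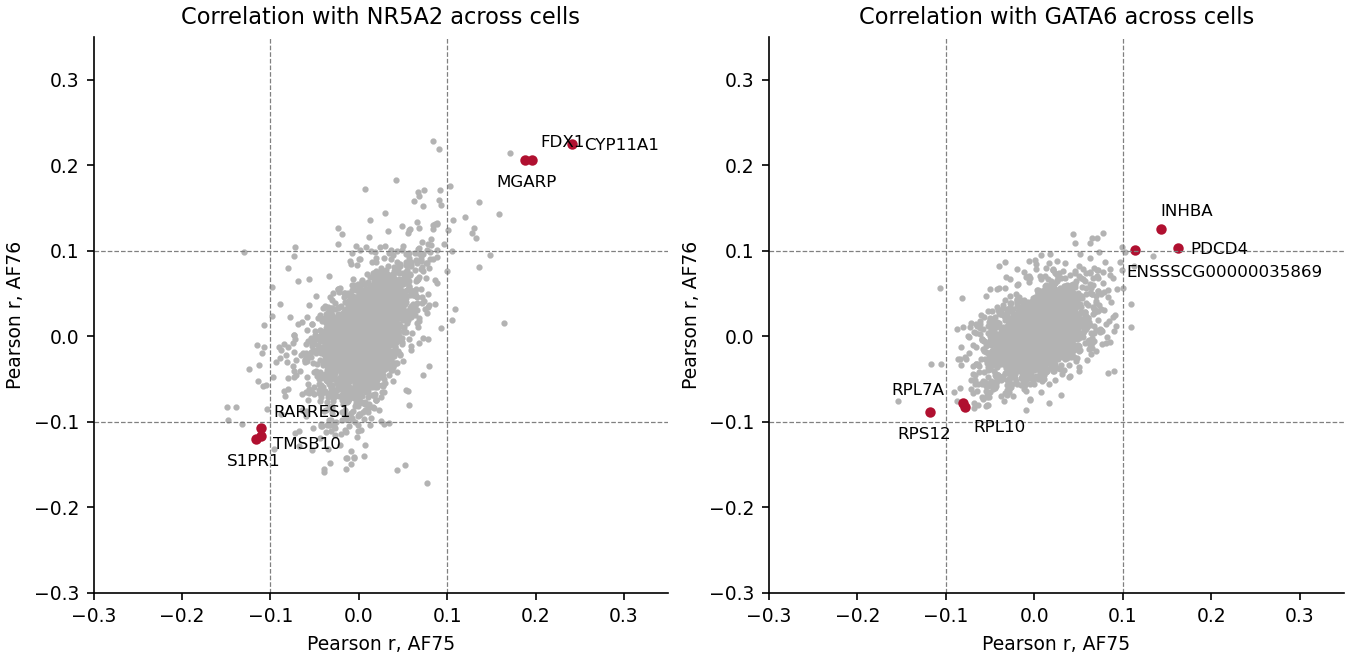
Pearson r of each of 6879 genes with NR5A2 (left) and GATA6 (right) across cells of AF75 (horizontal) and AF76 (vertical); dashed lines mark 0.1 and -0.1, and the 3 highest and 3 lowest genes are named. CYP11A1, FDX1 and MGARP lie farthest from the cloud with NR5A2, at about equal r in both follicles.

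The cells with at least 5 RUNX2 UMIs were then looked at, a choice made after the tail had been seen. Of 94 such cells in AF75, cluster 0 held 30, cluster 1 held 46 and cluster 4 held 13. Of 111 in AF76, cluster 0 held 39, cluster 1 held 29, cluster 3 held 34 and cluster 4 held 7. To keep the mitotic cells and cluster 3 out, 81 and 70 such cells of clusters 0, 1, 2 and 5 were compared with the other cells of these clusters. Their median depth was 12413 UMIs against 11087 in AF75 and 14558 against 14272 in AF76, and 8.64% and 4.29% of them were among the cells scored as likely doublets.

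Genes were ordered by fold among those at 50 CPM or more in the cells rich in RUNX2, without RUNX2 itself. STAR was first in AF76 and second in AF75, after SLC24A1. It stood at 279 CPM against 76.1 CPM in AF75 (3.67 times, 3.25 to 4.12) and at 286 against 59.1 CPM in AF76 (4.84 times, 4.30 to 5.44). Of the 10 genes with the largest fold in AF75, 7 were past 1.5-fold higher in AF76, where 9.67% of 9638 genes were. Of the 10 chosen in AF76, 7 were past it in AF75, where 9.57% were. These shares of all genes carry no minimum of 50 CPM, so they are not a like background. With the cells of all clusters, 9 of 10 chosen in AF75 were past it in AF76, where 14.2% of genes were. Of the 10 chosen in AF76, 5 were past it in AF75, where 9.82% were. TLCD4 was at 3.42 and 2.65 times, ENSSSCG00000006719 at 3.24 and 3.65 times, SLITRK4 at 2.36 and 2.63 times, NXNL2 at 2.81 and 2.56 times, and CSDC2 at 2.85 and 2.40 times. Among the factors NR5A2 was at 1.43 times in AF75 (1.34 to 1.53) and 1.47 times in AF76 (1.37 to 1.58), and GATA6 at 1.205 and 1.27 times.

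The known partners of the factors were read from a list of 20 cofactors. CBFB, which RUNX proteins need to bind DNA firmly, stood at 38.9 and 37.3 CPM. Of 17 cofactors with enough UMIs, 2 were past 1.5-fold higher in AF76 and none lower, with a median log2 ratio of 0.05, where 1.79% of all genes were past it higher and 3.83% lower. These were ZFPM2 (FOG2), which binds GATA4, at 9.89 against 5.25 CPM, and FOXO1, a forkhead factor of growing granulosa cells, at 59.9 against 32.4 CPM.

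Both cofactors were high in cluster 3. There ZFPM2 stood at 94.9 against 6.43 CPM in cluster 0 of AF76 (14.8 times) and FOXO1 at 504 against 38.0 CPM (13.3 times). In all, 11 of 17 cofactors were past 1.5-fold higher in cluster 3 and none lower, where 38.7% of all genes were higher and 14.7% lower. NR0B1 (DAX1), a repressor of NR5A1, had 115 UMIs in AF75 and 101 in AF76. Of 13 relatives of the factors GATA2, GATA5 and FOXL1 had no UMI in either follicle, GATA3 had 1 in all and RUNX3 had 4. CEBPD was the 1 of 7 tested relatives past 1.5-fold, with 16.3 CPM in AF75 against 25.7 CPM, where 5.62% of all genes were past it either way.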

How the data were processed

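Cells of 2 antral follicles of 1 pig, 1 library each, were sequenced with 10x Genomics 3' v3.1 chemistry. The authors deposited whole UMI counts per gene and called barcode, made with CellRanger 6.0.2 on Sscrofa11.1, with no filter on cells and no normalization. Totals were 125409747 and 127414267 UMIs, of which 111226504 and 108920601 were in the cells kept (2000 to 5000 genes, under 7% of UMIs from 13 mitochondrial genes). Doublets were scored against 25% artificial doublets but kept in the main values. Of 7356 genes listed by identifier, 1042 took their name from the reference table. The members and gene lists were chosen with earlier results of these data known.

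UMIs were summed per follicle or cluster. CPM has exact Poisson, shares Clopper-Pearson and ratios exact conditional 95% intervals. With 1 library per follicle no test was made. A ratio was called past 1.5-fold where at least 200 UMIs were counted. Cells were scaled to 10000 UMIs in Seurat 5.3.0 (R 4.3.3), integrated over 2000 variable genes without the members, and clustered on 40 components at the lowest resolution giving 6 clusters, as in the paper (0.24). Named genes are the members, the 3 genes at each end of likeness for a member, the leading 10 genes of a cluster, and examples of the lists. The cells rich in RUNX2 and their genes were chosen after their values were seen, as were the looser NR5A motif, the promoters shown, the settings without cluster 3 and the values relative to the median gene. Other steps ran in Python 3.11.15 with scikit-learn 1.9.0, scipy 1.17.1, numpy 2.4.6, matplotlib 3.10.9 and pandas 2.3.3. Ratio, thinning and correlation were tested on simulated data. Sequences are from the RefSeq annotation of Sscrofa11.1, and the gene models used for counting are not given in the sources used here. FOXL2 was not analysed here, and the promoter windows of some members are not reported here.

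Alternatives were 500 to 6000 genes, a mitochondrial limit of 10%, all barcodes, doublets (6.9% per follicle) removed, the mean of single-cell CPM, totals that leave out mitochondrial and ribosomal protein genes, thinning to 3000 or 8000 UMIs or with another seed, Spearman correlation, the largest cluster only, no integration, resolution 0.8, 20 components, and leukocyte-like cells left out.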

Additional observations from a re-analysis of the deposited data

Results flagged for a closer look

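WT1 in cluster 2, the cells led by ARPP21 and THBS1, moved opposite ways in the follicles: it stood at 0.0336 times the level of cluster 0 in AF75 and at 3.25 times in AF76, with counting intervals on opposite sides of 1. The counts were 1 UMI among 1587 cells of AF75 and 8 UMIs among 132 cells of AF76, under the minimum of 200 UMIs used for a call, and the difference was not tested. CCDC80, a leading gene of cluster 3, where WT1 is high, stood at 54.4 CPM in cluster 2 of AF76 and at 0.649 CPM in cluster 2 of AF75, against 957 CPM in cluster 3; its part in the WT1 value was not tested.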

How the results depend on the processing

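The number of factors past 1.5-fold between follicles, 1 (WT1), was 0 in the largest cluster only and 0 without cluster 3, where WT1 held under 200 UMIs in each follicle and could not be called, and the log2 ratio of WT1 turned from 1.37 to -0.38 in the largest cluster. The count of genes at r of 0.1 or beyond with any factor in both follicles, 20, was 50 when cells were thinned to 8000 UMIs, where fewer cells and more counts per cell enter; the cause was not tested. All other counts stayed within 1.5 times under the alternatives, among them 0 pairs of factors at r of 0.1, and 5 or 6 factors past 1.5-fold in cluster 3. The log2 ratios of single factors in a cluster to cluster 0 were less stable. Without integration, where fewer could be compared, 22 moved and 34 stayed. At resolution 0.8 it was 14 and 58, and with 20 components 9 and 63. With doublets or leukocyte-like cells left out all 72 stayed. Without mitochondrial and ribosomal protein genes in the library size, 15 of 16 CPM values left their counting interval. No paired analysis was possible because each follicle is 1 library, the groups share fewer than 2 replicate numbers and the results come from no test. WT1 and NR5A1, the factors with the fewest UMIs, were found in few cells at this depth. The 1 pig and 1 library per follicle leave the spread between follicles unknown.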

Other observations

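SOX9, the factor that drives supporting cells to the testis fate and that FOXL2 holds down, was counted in these ovarian cells. It had 922 UMIs or 8.29 CPM in AF75 and 98 UMIs or 0.900 CPM in AF76, where 3.83% of all genes were past 1.5-fold lower. In AF75 it stood at 41.5 CPM in cluster 2, where GATA4 was also highest, and at 0.842 CPM in cluster 0. Cluster 2 held 17.0% of AF75 cells and 1.68% of AF76 cells, and its part in the SOX9 difference was not tested. In AF76 it stood at 14.7 CPM in cluster 3, where WT1 was highest, and at 0.141 CPM in cluster 0. Of the other 7 testis factors listed, DMRT1, CBLN4 and GATA1 had no UMI in either follicle, SOX8 had 1 in all, and DHH, with 26 and 38 UMIs, had the most.

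Of 11 ovulatory genes with enough UMIs, 6 were past 1.5-fold lower in AF76 and 1, AREG, was past it higher, where 3.83% of all genes were lower and 1.79% higher. PTGS2, which makes prostaglandins, had 8.56 CPM in AF75 against 0.202 CPM, and VCAN, a matrix protein of the cumulus, had 2054 against 426 CPM. Cluster 2, in which VCAN stood at 7097 CPM in AF75, held 17.0% of AF75 cells and 1.68% of AF76 cells, and its part in these values was not tested.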
